A study of Mus musculus with 20 samples.

Results

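The levels of human and mouse genes were compared in livers that had received the control virus only, 4 humanized mouse livers for the human genes and 6 wild type (WT) mouse livers for the mouse genes. A human and a mouse gene formed a pair when both were protein coding and had the same symbol, ignoring case, which gave 15996 pairs among 19964 human and 21849 mouse protein-coding genes. Pairing by symbol is not a table of orthologs: a gene whose symbol differs between the species has no pair, and a shared symbol can stand for genes that are not the closest relatives. The deposited values were TPM, a gene's reads divided by its length and scaled to a fixed total per library. They were rescaled for each library so that the paired genes add up to 1000000, and all levels below are on this scale, called rescaled TPM, unless stated. Of the pairs, 14908 were above 0 in at least 1 control liver and 11347 reached an average of the 2 group means of at least 1 and were tested.

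Humanized mice were TK-NOG mice, highly immunodeficient animals that carry a herpes simplex virus thymidine kinase transgene under a mouse albumin promoter. They were 8 to 9 weeks old when ganciclovir, given at 25 mg/kg, killed the cells with the transgene. Cryopreserved human primary hepatocytes, 1000000 per mouse, were then placed through the spleen, and mice with more than 0.5 mg/ml of human albumin in serum at 8 to 12 weeks after transplantation were used. The WT group consisted of C57BL/6 males that arrived at 8 weeks and entered the experiment after 10 to 14 days in the facility. All 10 mice received 2000000000 pfu of the control (LacZ) adenovirus into a vein, and livers were taken on day 7 after a 4 h fast. Only hepatocytes were transplanted, and the table of the humanized livers lists human genes alone, so the other cell types of those livers, which are the host's, are outside the comparison. Species cannot be told apart from host strain, immune status, host age, ganciclovir treatment and transplantation. Nor can it be told apart from read length, library and the genome index used for alignment. A difference below is one between these 2 sets of livers.

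Hepatocytes make most plasma proteins, the lipoproteins and the bile acids, and carry out the urea cycle, gluconeogenesis, fatty acid oxidation and detoxification. The liver also holds Kupffer cells (its resident macrophages), sinusoidal endothelial cells, stellate cells, bile duct cells and blood cells. Many detoxification and plasma protein genes belong to families whose members have multiplied or been lost separately in rodents and primates.

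The reads behind the TPM, recovered from their steps, numbered 2217867 to 11386120 (median 4469341) on protein-coding genes in the human set and 31603688 to 42599548 in 5 of the mouse livers, with 1356559 in mouse liver replicate 2. Protein-coding genes held 29.2 to 37.8% of the deposited TPM in the human and 75.7 to 77.6% in the mouse libraries, and mitochondrial ribosomal RNA held 29.1 to 49.1% and 0%. The pairs covered 89.4 to 91.6% of the human and 80.7 to 83.0% of the mouse protein-coding TPM. Within a species, human replicate 2 lay more than 1 on the log2 scale beyond all other human livers in 419 tested pairs, against 109 to 222 pairs for the other human livers, and mouse replicate 2 did so in 253 pairs, against 0 to 8 for the other mouse livers. The authors state that the hepatocytes of their humanized mice came from few donors. Labels do not say whether the humanized mice shared a donor, so the spread between the 4 human livers may leave out differences between donors.

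The hepatocyte markers were abundant in both sets, with summed levels of 200231 to 302423 in human and 156019 to 173165 in mouse livers. Albumin alone gave means of 179362 and 81336 within these sums. Of the 15 members tested, 3 were higher in human and 6 in mouse, with a median of −0.30. Markers of other cells were low among human genes. The 14 paired Kupffer cell and macrophage markers summed to 3.32 to 14.2 in human and 1195 to 1694 in mouse livers, and 9 of them, among them CSF1R, the receptor for the growth factor of macrophages, CLEC4F and the C1Q chains C1QA, C1QB and C1QC, were listed at 0 in every human liver. CD5L, a protein secreted by macrophages, was listed at 0, 0, 0 and 3.64 in the human livers and 393 to 566 (median 463) in mouse. The 13 endothelial markers summed to 1.37 to 7.42 against 394 to 495, and all 13 were higher in mouse, for example the endocytic receptor STAB2 (0.252 against 59.5). Markers of stellate cells and fibroblasts summed to 28.8 to 41.2 in human and 383 to 499 in mouse livers, with the matrix proteoglycan DCN at 0.177 ± 0.210 and 127 ± 14.9 (SD, n = 4 and 6). The lymphocyte, neutrophil and erythroid lists each summed to at most 3.52 in any human liver, with T and NK cell markers at 0 to 1.12 against 31.6 to 49.5 in mouse. A WT mouse library holds RNA of every cell type of the liver. In the humanized mice only hepatocytes were transplanted and only human genes are listed. Low human levels of the markers of other cells were thus set by the design.

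Markers of bile duct cells took both directions. Of 10 tested, 6 were higher in human and 4 in mouse, with a median of 1.96. That median was −2.10 over the 3 pairs with a mean of at least 1 in both species. The list summed to 50.6 to 221 in human and 193 to 233 in mouse livers. The adhesion molecule EPCAM was at 21.7, 48.3, 64.6 and 43.5 in the human livers and 0 to 1.54 in mouse, so the groups did not overlap. KRT7, a keratin of bile duct cells, was at 22.1 ± 19.6 against 0.233 ± 0.121, whereas KRT19, the other classic duct keratin, stayed under the filter at 0.644 and 1.32. AQP1, a water channel of duct and endothelial cells, was at 0.505, 33.2, 12.04 and 0 in human and 87.6 to 140.4 (median 128) in mouse livers. SPP1, osteopontin, was the single marker of the list with at least 3 reads in every control liver, so levels near 1 rest on few reads. SPP1 was called higher in mouse, with a difference of −2.10 on the log2 scale.

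**Figure D1:**
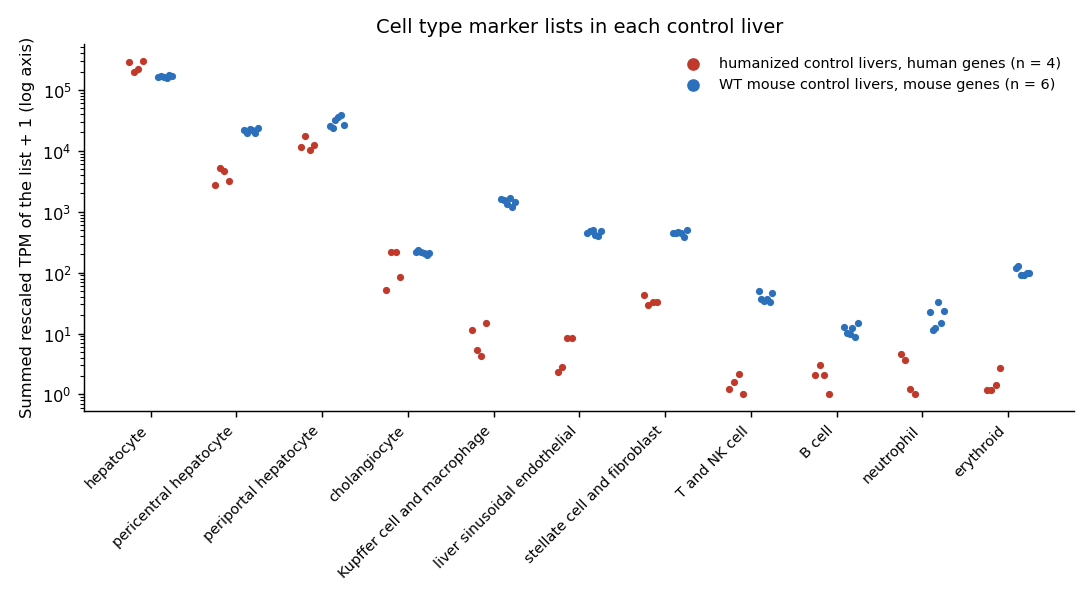
Summed rescaled TPM plus 1 (log axis) of 11 lists of cell type markers in each control liver, with human genes of 4 humanized livers in red and mouse genes of 6 WT livers in blue. Hepatocyte lists are high in both sets, while the Kupffer cell list lies between 3.32 and 14.2 in human and between 1195 and 1694 in mouse livers.

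Most pairs differed between the sets by more than the spread between livers. By limma on log2(rescaled TPM + 1), 9302 of 11347 pairs (82.0%) passed an adjusted p of 0.05, and in 71.3% of tested pairs no human liver overlapped any mouse liver. A pair was called when it passed that threshold and differed at least 2-fold, which 56.4% of tested pairs did, and 3072 pairs (27.1%) were called higher in human and 3330 (29.3%) higher in mouse. The difference, always given as human minus mouse, had a median of −0.01 on the log2 scale over all tested pairs, quartiles of −1.28 and 1.11, and a median size of 1.19. A difference over 3 on the log2 scale was reached by 5.38% of pairs towards human and 8.27% towards mouse. Those shares are the background for every list below. Adding 1 before the logarithm makes the difference of low genes smaller than their true change. The split depends on the scale: on TPM as deposited, where the human libraries share their total with mitochondrial ribosomal RNA, the median moved to −0.89 and 1332 pairs were called higher in human against 5347 in mouse, so that 19.9% of calls were higher in human in place of 48.0%.

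The comparison was repeated in other livers. In the livers of the same 2 kinds of mice with HuR knockdown, 4 humanized and 6 WT, which took no part in the fit, 11145 of the tested pairs could be tested again. There 82.7% of 11272 pairs passed the adjusted p and 56.4% were called. Of the 6257 pairs called in control livers and tested in both, 5665 (90.5%) were called there in the same direction and 19 had the opposite sign. Host, read length, library and genome index differ with species in these livers too, so the repeat cannot tell them apart. Among the 8442 pairs with at least 3 reads in every control liver 45.4% were called, 2000 (23.7%) higher in human and 1834 (21.7%) in mouse. An alternative added after the data were seen left out pairs listed at 0 in every library of a species. It called 2975 of 10881 pairs higher in human and 2963 in mouse.

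**Figure D2:**
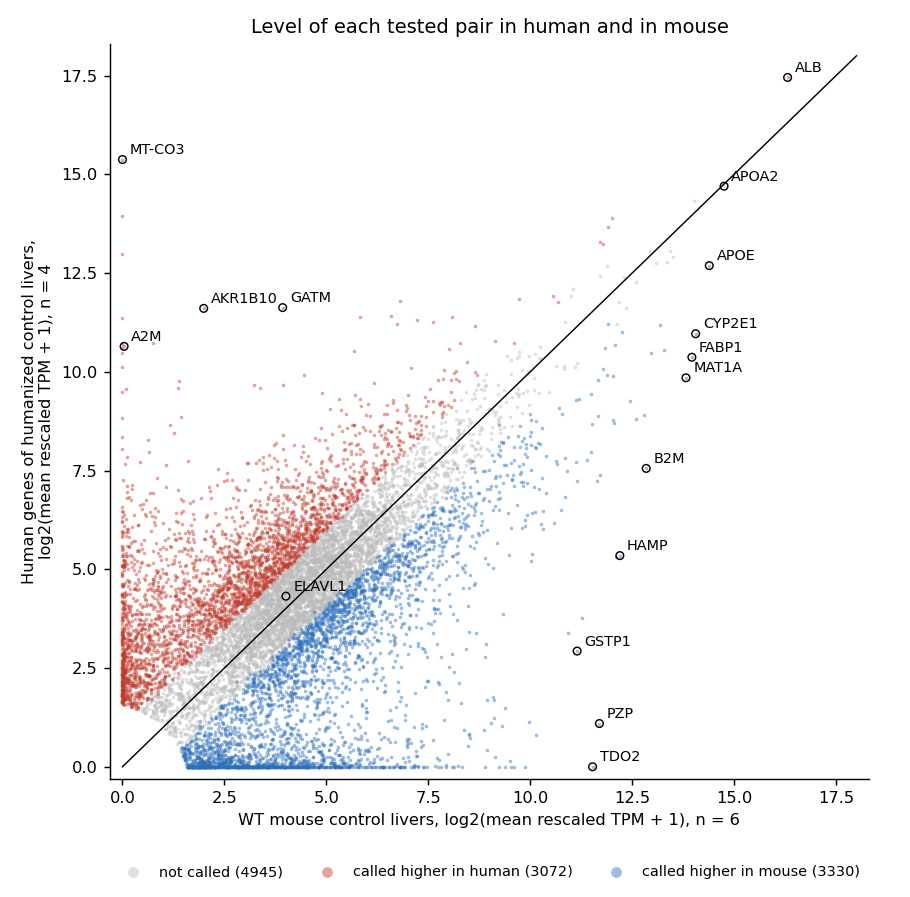
Each point is 1 of 11347 tested pairs, placed by log2 of its mean rescaled TPM plus 1 in 6 WT mouse livers (horizontal) and in 4 humanized livers (vertical), with called pairs in colour and named pairs circled. Points spread widely about the line of equal level, with 3072 called above it and 3330 below, and a row along each axis holds pairs listed at or near 0 in the other species.

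Ranks were stable within a species and much less so between species. Spearman's rho over the 14908 pairs had a median of 0.963 (0.951 to 0.968) between human livers, 0.992 (0.972 to 0.994) between mouse livers and 0.692 (0.677 to 0.711) between a human and a mouse liver. Over the 11347 tested pairs, which leave out those low in both species, the values were 0.960, 0.991 and 0.523 (0.502 to 0.558). These are correlations across genes, which are not independent replicates, and the 24 values between species share libraries. The spread between livers was also larger in the human set, with a median SD over tested pairs of 0.296 on the log2 scale, against 0.167 in mouse. Without replicate 2 of both sets these were 0.246 and 0.121.

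The highest pairs held more of the paired expression in human livers. The 10 highest pairs of each library held 34.4% ± 3.06 (SD, n = 4) of paired TPM in human and 22.9% ± 1.09 (SD, n = 6) in mouse livers, and 39 to 80 pairs made up 50% of the total in human livers against 86 to 115 in mouse. Without the mitochondrial pairs the 10 highest held 32.5% ± 4.11 and 22.9% ± 1.09, with no overlap, while 50 to 110 and 86 to 115 pairs made up 50%, which overlap. Albumin alone took 13.7 to 21.5% and 6.43 to 9.04%. Of the 100 highest pairs by group mean, 49 were shared, and of the 500 highest 248 (49.6%).

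Of the 10 highest pairs of each species 4 were shared, ALB and 3 apolipoproteins. ALB, the main plasma protein, was at 208385, 137058, 156882 and 215121 in the human livers and 64294 to 90416 (median 83688) in mouse, ranked first in both, and was higher in human by 1.12 on the log2 scale (standard error 0.22, limma adjusted p = 0.000488). That difference rests on the scale, being 0.05 on TPM as deposited. APOA2, a structural protein of high-density lipoprotein, was at 26611 ± 6990.1 and 27608 ± 2736 (SD, n = 4 and 6), and the groups overlapped. APOA1, the main protein of the same particle, was at 26209, 10053, 17564 and 28554 and 12126 to 21386 (median 16098), again with overlap. Its lowest human value was that of replicate 2, without which it differed by 0.54 (limma adjusted p = 0.0385), less than 2-fold. APOC1 ranked 10 in human and 9 in mouse and differed by −0.37 (limma adjusted p = 0.0342), short of 2-fold and with overlapping groups.

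The other pairs among the human 10 were plasma proteins and mitochondrial transcripts. APOH, a phospholipid-binding plasma protein, was at 15339 ± 3385 in human and 4104 ± 233 in mouse livers. APOC3, an inhibitor of triglyceride clearance, RBP4, the carrier of retinol, and AMBP, the precursor of a protease inhibitor and a small carrier protein, were higher in human by 1.75, 1.56 and 1.47. All 4 human livers lay above all mouse livers in each of them. Mitochondrially encoded MT-CO3 and MT-CO1 ranked 2 and 5 in human livers, while all 12 paired mitochondrial genes were listed at 0 in every mouse library, so no comparison can be made for them. They took 6.41 to 9.38% of paired TPM in human livers. Rescaling without them moved the median difference to 0.09.

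The mouse 10 held enzymes and carriers that were far lower in human livers. APOE, the ligand for uptake of lipoprotein remnants, was at 5469, 7348, 7047 and 6528 in the human livers and 19194 to 26247 (median 20749) in mouse. CYP2E1, which oxidises ethanol and small solvents, was at 1268, 2791, 2215 and 1707 and 14651 to 18819.5 (median 17193), a human mean 8.54-fold lower. FABP1, the fatty acid carrier of the hepatocyte cytosol, was at 1555, 755, 1192 and 1781 and 12899 to 20214 (median 15236). MAT1A, which makes S-adenosylmethionine, was at 637, 1388, 923 and 734 and 10453 to 18212 (median 14277), with ranks of 92 in human and 7 in mouse. In these 4 pairs the human livers lay below every mouse liver. The vitamin D carrier GC and the fetuin AHSG, the remaining ones, differed by −0.59 and −0.56 (limma adjusted p = 0.00265 and 0.00362), less than 2-fold.

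**Figure D3:**
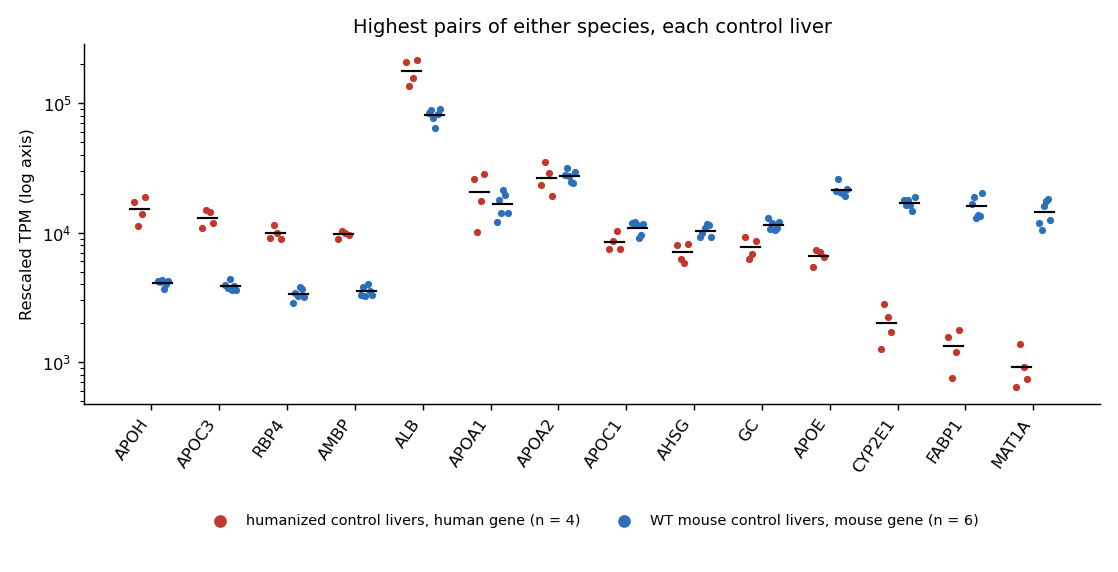
Rescaled TPM (log axis) of the pairs among the 10 highest of either species, mitochondrial genes left out, with a point per control liver and a bar at the group mean, ordered by the ratio of human to mouse mean. APOH, APOC3, RBP4, AMBP and ALB lie higher in human livers, APOA1, APOA2 and APOC1 overlap, and the human livers lie lowest against mouse in MAT1A.

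The largest differences were taken among called pairs whose groups do not overlap, with a group mean of at least 50 in the higher species. They involved pairs at or near 0 in the other table. Towards human the selection took 6 mitochondrial genes, which passed only through the human set and are not compared, SULT2A1 and A2M, and towards mouse TDO2, PZP, LDHA, ECH1, CHCHD10, DDT, APOC4 and GSTA3. SULT2A1, which attaches sulphate to steroids and bile acids and belongs to a family with several mouse copies, was at 1205, 1751, 1576 and 1181 in human livers and listed at 0 in every mouse liver. A2M, a protease inhibitor of plasma, was at 2129.6, 647, 1415 and 2202 in human and at most 0.0684 in any mouse liver, whereas its relative PZP was at 0.278, 2.67, 0.735 and 0.863 in human and 3024 to 3492 (median 3359) in mouse. The genes are relatives, and the higher of the pair differed between the sets, with human and mouse ranks of 51 and 13219 for A2M and 10098 and 43 for PZP. TDO2, the first enzyme of tryptophan breakdown, was at 2240.0 to 3626 (median 2938) in mouse and listed at 0 throughout the human table. Mouse A2m lies on chromosome 6 (121635376 to 121679227) and Pzp on the same chromosome (128483567 to 128526720), and Tdo2 on chromosome 3 (81957090 to 81976202), all in genome build GRCm38.

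The same selection among pairs with at least 3 reads in every control liver, chosen after their values were seen, gave differences that do not rest on values at 0. AKR1B10, an aldo-keto reductase that reduces aldehydes and retinal, was at 3332, 1778, 3799 and 3554 in human and 2.29 to 3.70 (median 2.90) in mouse livers, a difference of 9.57 on the log2 scale (standard error 0.20, limma adjusted p = 7.61e-13). GATM, the first enzyme of creatine synthesis, was at 4011, 1726, 3089.7 and 3809 and 9.34 to 19.8 (median 13.9), a 222-fold higher human mean. The human values of both were lowest in replicate 2 and still far above every mouse liver. SLC22A7, an organic anion transporter, and PEG10, an imprinted gene derived from a retrotransposon, followed at 6.45 and 6.21, with PEG10 at 218, 43.8, 252 and 119 in human and 0.505 to 1.21 in mouse. ORM2, an acute phase glycoprotein, was at 2723 ± 659 and 95.8 ± 159 (SD), the mouse spread being that of replicate 4 at 419 against 13.9 to 47.1 in the other 5. MYL12B, TMSB10 and SPATS2L completed the list. ORM2, MYL12B and TMSB10 have close relatives or processed copies in the genome, and how reads matching several places were counted is not given in the sources used here, so their levels are uncertain.

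In the other direction GSTP1, a glutathione transferase, was at 3.18, 6.05, 13.5 and 3.76 in human and 2005 to 2977 (median 2140.2) in mouse livers, a 343-fold lower human mean, and its close mouse copies make the level uncertain too. ITIH4, an acute phase plasma protein, was at 7.27, 16.3, 4.14 and 10.03 and 1591 to 2559 (median 1771). RNASE4, a secreted ribonuclease, was at 13.3, 18.2, 11.1 and 7.51 and 2158 to 2796 (median 2488), and GNMT, which uses up S-adenosylmethionine by methylating glycine, at 8.07, 110.0, 23.1 and 13.4 and 3767 to 4814 (median 4581). In GNMT human replicate 2 stood highest, and still far below every mouse liver. HAMP, the iron hormone hepcidin, was at 32.5, 67.5, 29.2 and 29.5 and 3983 to 5239 (median 4859), a 118-fold lower human mean, and the autophagy receptor SQSTM1 at 2.39 ± 0.489 and 543 ± 19.8 (SD). The sulfhydryl oxidase QSOX1 and the small heat shock protein HSPB8 differed by −6.40 and −6.33. A low human level beside a high mouse one, as in SQSTM1, ITIH4 and RNASE4, can be a failed estimate, which was not tested. Mouse Hamp lies on chromosome 7 (30942368 to 30944032) and Gnmt on chromosome 17 (46725664 to 46729168), in GRCm38.

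**Figure D4:**
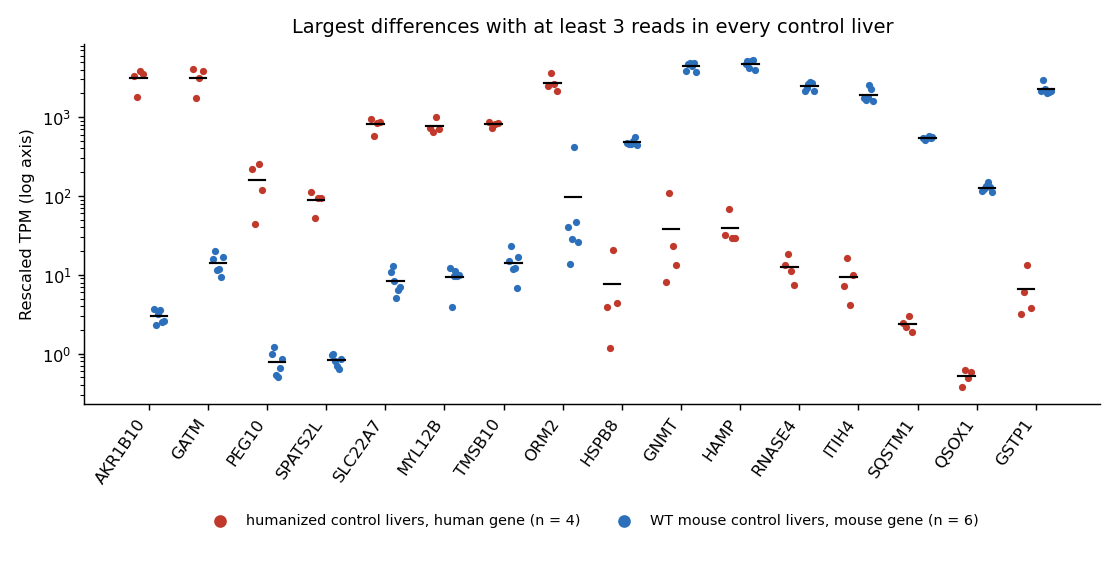
Rescaled TPM (log axis) of the 8 pairs with the largest difference in each direction among called pairs with at least 3 reads in every control liver, a point per liver and a bar at the group mean. The pairs were chosen among those whose groups do not overlap, so the lack of overlap is given by the choice. Single livers stand apart in some, among them ORM2, GSTP1 and MYL12B (mouse) and HAMP, GNMT and HSPB8 (human).

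At the other end, 291 pairs had group means of at least 200 in both species, and the 6 with the smallest difference were PRDX1, CYC1, PTTG1IP, EIF5, HPN and TPI1. The peroxidase PRDX1 was at 981 ± 151 in human and 981 ± 96.3 in mouse livers, and the glycolytic enzyme TPI1 at 536 ± 24.7 and 517 ± 51.8. CYC1, a subunit of respiratory complex III, was at 194, 302, 251 and 184 and 208 to 264 (median 223). The translation factor EIF5 and the membrane protease HPN had means of 213 and 318 in human and 215 and 292 in mouse. These pairs were chosen for a small difference, so the values are a description. They moved by about the shift of the median, to between −1.10 and −1.01, on TPM as deposited.

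Some pairs were listed at 0 throughout 1 set while high in the other. Of the 2303 tested pairs with a mouse mean of at least 50, 54 were at 0 in all 4 human control livers, and 36 of these were also at 0 in the humanized livers with HuR knockdown. They included genes that nearly every cell uses, such as RPS25 of the small ribosomal subunit, the spliceosome core protein PRPF8, the elongation factor subunit EEF1G and the adaptor YWHAE, at 175, 165, 140.2 and 111 in mouse. The lactate dehydrogenase subunit LDHA was at 753 to 1111 (median 938) in mouse livers. A gene listed at 0 beside such genes can be a failed estimate, so no fold is given for any of them. They also included macrophage genes, such as the signalling adaptor TYROBP, at 119 in mouse. In the other direction 21 of 2322 pairs with a human mean of at least 50 were at 0 in every mouse liver, of which 11 were mitochondrial. The others were SULT2A1, CLRN3, DAO, ANXA10, NIPSNAP3A, NPW, SPATA20, PRAP1, SLC1A1 and TRIM55, at 55.7 (TRIM55) to 1428 (SULT2A1).

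Genes with no pair held a mean of 9.69% of human and 18.1% of mouse protein-coding TPM, and their levels are given over all protein-coding genes. In human livers the highest were FTL, the ferritin light chain (31681 ± 7535, SD, n = 4), the glucuronosyltransferases UGT2B7 (3898 ± 1050) and UGT2B4 (3658 ± 893), the alcohol dehydrogenase ADH1C (3367 ± 645) and the drug-metabolising CYP3A4, which ranged from 779.6 to 4955. In mouse they were the major urinary proteins Mup3 (14833 ± 1828, SD, n = 6) and Mup20 (6176 ± 517), the protease inhibitor Serpina3k (12161 ± 1572), transferrin, Trf (8655 ± 558, listed as TF in human at 1809 ± 267), and the fatty acid hydroxylase Cyp4a14 (7686 ± 1236). Genes without a pair do not enter the list counts.

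Among lists of genes with a known role, the proteins that carry molecules in plasma were divided. Of 21 tested, 8 were higher in human and 5 in mouse, with a median of 0.39. The median was −0.69 on TPM as deposited, against −0.89 for all pairs, and 0.08 with at least 3 reads in every control liver (6 and 5 of 19 called). AFM, a carrier of vitamin E, was at 2551 ± 743 in human and 149 ± 36.5 in mouse, and SERPINA7, which binds thyroid hormone, at 314 ± 54.5 and 84.3 ± 70.7. HPX, which binds haem, went the other way at 1508 ± 204 and 10002 ± 2973, as did the cortisol carrier SERPINA6 at 23.5, 17.9, 6.97 and 29.2 and 69.3 to 221 (median 138). TTR, the other carrier of thyroid hormone, was close to equal, with means of 8485 and 7812.

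Apolipoproteins and lipoprotein handling had 4 of 27 members higher in human and 13 higher in mouse, with a median of −0.37. APOA4 was at 151 ± 186 against 2252 ± 2057, and LCAT, which esterifies plasma cholesterol, at 85.7 ± 25.9 against 1108 ± 89.6. APOM, the carrier of sphingosine 1-phosphate, was at 1.82 ± 1.93 against 670.1 ± 101. Like the genes listed at 0 above, a human level so near 0 can be a failed estimate, which was not tested. ANGPTL8, an inhibitor of lipoprotein lipase, was higher in human, at 470.0, 272, 708 and 623 and 18.5 to 92.2 (median 31.5). APOB, the structural protein of very-low-density lipoprotein, differed by −0.30 and was not called.

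Clotting factors were divided evenly between the directions, much as all tested pairs were (27.1% and 29.3%), and complement genes were not. Coagulation and fibrinolysis had 5 of 24 (20.8%) higher in human and 5 (20.8%) higher in mouse, with a median of −0.05. FGA, a fibrinogen chain, was at 5408 ± 1492 and 5051 ± 221. SERPINC1, antithrombin, was higher in human at 3285, 4943, 2994 and 3441 against 795 to 862 (median 848), and SERPINA5, the protein C inhibitor, was at 749.6 against 0.0579, while SERPINF2, the inhibitor of plasmin, was higher in mouse (69.3 against 1222). Of 16 complement genes, 0 were higher in human and 10 (62.5%) in mouse, with a median of −2.48. C3, the central component, was at 2053 ± 399.9 and 4872 ± 350.3, and C9, a pore-forming component, at 9.50 ± 13.5 and 409 ± 80.3, whereas C6, C8A and C8B differed by −0.13, −0.16 and 0.32, none of them called and C8B with the opposite sign on TPM as deposited (−0.75) and in livers with HuR knockdown (−0.055). Among the 12 with at least 3 reads in every control liver the median was −0.92 and 6 were higher in mouse. C2, CFB, CFD and CFP, which count among the 10, had human means of 0 to 0.337. Such values can be failed estimates, which was not tested. Macrophages also make complement proteins, and their markers were higher in mouse by the sums given above, and their part in the list was not tested.

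Acute phase proteins were split into high and low members. Of 14 tested, 4 were higher in human and 9 in mouse, and the median of −3.58 became −0.16 over the 10 with at least 3 reads in every control liver. APCS, the pentraxin serum amyloid P, was at 2471 ± 777 in human and 195 ± 74.6 in mouse, and the lipopolysaccharide-binding protein LBP at 622 ± 57.1 and 99.2 ± 6.55. HP, which binds free haemoglobin, was at 534, 419, 387 and 567 and 5719 to 8992 (median 6929), and CRP, the other pentraxin, at 29.7 ± 37.3 and 336 ± 35.3. SAA1, serum amyloid A, was at 0 to 0.479 in human and 42.96 to 804 (median 76.1) in mouse livers.

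Detoxification genes held large differences in both directions. In the list of conjugating and other detoxifying enzymes, 12 of 41 were higher in human and 17 in mouse, or 7 and 10 of 29 with at least 3 reads in every control liver. The aldehyde oxidase AOX1 was at 563 ± 88.5 in human and 57 ± 7.03 in mouse, and the alcohol dehydrogenase ADH4 at 2697 ± 518 and 269 ± 52.9. In mouse the nicotinamide methyltransferase NNMT was at 325 to 892 (median 498) against 0 to 3.96 in human, the microsomal transferase MGST1 at 6153 ± 317 against 447 ± 70.5, and the epoxide hydrolase EPHX2 at 3369 ± 280.4 against 166 ± 27.4. Of 14 cytochrome P450 and electron donor genes tested, 2 were higher in human and 7 in mouse. CYP1A1 and CYP1B1, both targets of the aryl hydrocarbon receptor, were the 2, at 22.6 and 20.8 against 1.82 and 0.923, while CYP1A2 differed by 0.10. In the livers with HuR knockdown the counts were 3 and 6, and the median moved from −1.40 to −0.20. Only 16 of the 28 genes listed had a pair, and the others had no matching symbol.

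Bile acid synthesis and transport had 6 of 27 genes higher in human and 11 in mouse, with a median of −0.35. The median was 0.02 in the livers with HuR knockdown, and with at least 3 reads in every control liver it was −0.68, with 3 and 11 of 24 called. CYP7A1, the rate-limiting enzyme, was at 1190.4, 65.5, 1034 and 1247 in human and 299.9 to 566 (median 487) in mouse, with overlapping groups. Human replicate 2 decided this pair, which differed by 0.31 with it (limma adjusted p = 0.685) and by 1.34 without it (3.03e-05). CYP8B1, which directs synthesis to cholic acid, was at 215 ± 83.2 and 2672 ± 307, and the canalicular bile salt pump ABCB11 at 84.8 ± 70.5 and 321 ± 64.3. The subunits of the basolateral exporter, SLC51A and SLC51B, were higher in human, at 66.2 and 44.4 against 0.179 and 1.88.

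Amino acid breakdown was higher in mouse almost throughout. Of 34 tested pairs, 28 were higher in mouse and 2 in human, against 29.3% and 27.1% of all pairs, and the median difference was −2.66. Beside MAT1A and GNMT, the methionine cycle enzymes BHMT and AHCY were at 612 ± 253 and 89.1 ± 9.60 in human and 5545 ± 1148 and 1732 ± 261 in mouse. TAT, which starts tyrosine breakdown, was at 257, 2659, 506 and 446 and 2593 to 5644 (median 3284), and HPD, which follows it, at 2360.2 ± 2167 and 3865 ± 509. Without human replicate 1 or 4 HPD no longer passed (differences of −0.76 and −0.86). ACMSD, of tryptophan breakdown, and ALDH4A1, of proline breakdown, were the 2 higher in human, at 1.71 and 1.30, and 0.64 and 0.23 on TPM as deposited, where neither was called. Human replicate 2 stood apart here: SDS, which deaminates serine, was at 6.07, 1572, 8.87 and 6.58 in the human livers against 456 to 854 (median 527) in mouse. With replicate 2 of both sets left out, 29 were higher in mouse and the median was −2.94. In the livers with HuR knockdown the counts were 2 and 28 and the median −2.55.

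The urea cycle and its ammonia-handling partners had 7 of 12 genes higher in mouse and 2 in human. CPS1, which makes carbamoyl phosphate, was at 1285, 2174, 897 and 1297 in human and 5679 to 10658 (median 7565) in mouse livers, ARG1, which releases urea, at 952 ± 515 and 4181 ± 1254, and ASL at 85.5 ± 61.7 and 1058 ± 314. OTC, between them in the cycle, was higher in human at 1108, 1039, 905 and 1051 against 322 to 475 (median 394), and so was the glutamate dehydrogenase GLUD1 at 1691 ± 328 against 775 ± 79.4. On TPM as deposited OTC and GLUD1 differed by 0.29 and 0.03 and were not called. The periportal markers as a list had 7 of 10 higher in mouse with a median of −2.36. Of 12 pericentral markers 5 were higher in human and 3 in mouse, with a median of −0.06. The pericentral sums were higher in mouse, at 2736 to 5236 in human and 19894.5 to 23278 in mouse livers. Within these sums CYP2E1 had means of 1995 and 17038. In the livers with HuR knockdown the pericentral counts were 6 and 4 and the median 0.73. Among pericentral genes, CYP2E1 and OAT were higher in mouse, while LGR5, the receptor for R-spondins, RHBG, an ammonia transporter, and LECT2, a secreted chemotactic protein, were higher in human by 2.12, 2.72 and 2.03. CDH1, E-cadherin, was the periportal exception at 306 ± 19.6 in human and 27.2 ± 7.31 in mouse.

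Most genes of gluconeogenesis, glycogen and sugar entry were not called, with 3 of 19 genes higher in human and 5 in mouse. PCK1, a rate-limiting enzyme of gluconeogenesis, was at 261, 697, 447 and 347 and 3867 to 4537 (median 4053), and the glycogen synthase GYS2 at 15.7 ± 5.49 and 354 ± 44.4. The glucose transporter SLC2A2 was higher in human at 1008, 998, 1371 and 879.6 against 186 to 265 (median 245). The genes of glycolysis that adult hepatocytes hold at a low level had 5 of 8 higher in mouse and 0 in human, with a median of −1.52. With at least 3 reads in every control liver 2 of 5 were higher in mouse and the median was −0.56. Markers of Kupffer, endothelial and blood cells, given above, were higher in mouse too, and their part in this list was not tested.

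Fatty acid oxidation and ketogenesis had 18 of 38 genes higher in mouse and 4 in human, with a median of −0.87. PPARA, the nuclear receptor that drives this programme, was at 68.8 ± 9.22 in human and 251 ± 26.7 in mouse, and CPT1A, which controls fatty acid entry into mitochondria, at 145 ± 80.8 and 644 ± 117. The hydratase ECHS1 was higher in human, at 1918, 2552, 2849 and 2131 against 95.7 to 111 (median 108). In fatty acid and triglyceride synthesis 5 of 31 were higher in human and 14 in mouse, and 3 and 13 in livers with HuR knockdown. FASN, the fatty acid synthase, was at 184 ± 49.6 and 59.5 ± 17.6, THRSP, a lipogenic protein, at 536 ± 164 and 32.9 ± 10.04, and PNPLA3, a lipase of lipid droplets, at 85.7, 48.1, 93.6 and 109 against 0 to 1.02 (median 0.406). The desaturase FADS2 and the elongase ELOVL5 were higher in mouse, by 2.54 and 2.32 on the log2 scale. HSD17B13, another lipid droplet protein, was at 1355, 232, 1112 and 1243 in human and 568 to 852 (median 747) in mouse, and without human replicate 2 its difference was 0.75 (limma adjusted p = 0.000201) in place of 0.15 (0.738).

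Cholesterol synthesis had more members higher in human than in mouse. Of 25 genes 12 were higher in human and 5 in mouse, with a median of 0.71. HMGCS1, an early enzyme of the pathway, was at 418 ± 275 in human and 146 ± 34.6 in mouse, IDI1 at 397, 140.4, 246 and 386 and 9.55 to 15.9 (median 12.1), and SQLE, which makes squalene epoxide, at 202 ± 112 and 23.3 ± 8.47. HMGCS1 no longer passed without human replicate 1 or 4 (0.96 and 0.89). FDFT1, squalene synthase, was an exception at 2.34, 1.57, 3.18 and 1.73 in human and 49.8 to 77.4 (median 61.8) in mouse. Human levels so near 0 can be failed estimates, which was not tested. On TPM as deposited the list median was −0.30, against −0.89 for all pairs, and with replicate 2 of both sets left out it was 1.12, with 14 higher in human.

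Transcription factors of hepatocytes had 7 of 37 (18.9%) higher in human and 13 (35.1%) in mouse, against 27.1% and 29.3% of all pairs. Their median size of the difference was 1.21, near the 1.19 of all pairs. HNF4A, the central factor of hepatocyte identity, was at 152 ± 11 in human and 751 ± 65.2 in mouse, while its relative HNF4G was at 61.9, 34.96, 56.3 and 54.3 and 0 to 0.456 (median 0.187). The drug sensor NR1I3 (CAR) was at 56.5 ± 13.8 and 378 ± 72.3 and NR1I2 (PXR) at 67.1 ± 4.87 and 156 ± 13.9. PROX1 and FOXA2 differed by −0.04 and 0.29, with neither called and FOXA2 at −0.73 on TPM as deposited. Of 17 genes of the growth hormone, IGF and insulin axis, 0 were higher in human and 6 in mouse, with a median of −0.11. Human replicate 2 stood apart in their sum, at 2619 against 1204 to 1584 in the other human livers, and with replicate 2 of both sets left out 2 were higher in human, 6 in mouse, and the median was −0.57. IGF1 was at 23.6, 11.4, 10.6 and 13.9 in human and 158 to 224 (median 212) in mouse, and SOCS2, a growth hormone target, at 0.437 ± 0.138 and 4.28 ± 1.44, while the growth hormone receptor GHR was at 333 ± 95.6 and 197 ± 24.7, a difference of 0.72 that became −0.35 on TPM as deposited.

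Metal handling and oxidative stress genes had more members higher in human, though their medians on TPM as deposited were −0.08 and −0.21. Of 13 genes of iron, copper, zinc and selenium handling, 6 were higher in human and 2 in mouse, the latter HAMP and SELENOP, the plasma selenoprotein, at 2343 ± 254 and 9357 ± 769. The iron exporter SLC40A1 was at 418 ± 79.9 and 114 ± 15.8, the zinc transporter SLC39A14 at 426 ± 97.1 and 108 ± 3.67, and the manganese exporter SLC30A10 at 144, 125, 134 and 133 and 10.5 to 17.8 (median 14.02). Among 13 tested targets of NRF2, the oxidative stress factor, 5 were higher in human and 2 in mouse, with a median of 0.84. Beside AKR1B10, NQO1 was at 137 ± 73.8 and 29.4 ± 3.24 and PGD at 104 ± 16.8 and 9.18 ± 1.42, while SRXN1 and GCLM were higher in mouse, by 4.56 and 1.26 on the log2 scale. In the livers with HuR knockdown 3 were higher in human and 3 in mouse.

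Cell cycle genes were higher in human almost throughout. All 36 had a higher human mean, 32 were called higher in human and 0 in mouse, and the median difference was 2.21. CCND1, the cyclin of G1, was at 150.2 ± 31.6 in human and 12.7 ± 2.24 in mouse, the replication clamp PCNA at 281, 136, 257 and 241 and 29.3 to 38.8 (median 31.8), the topoisomerase TOP2A at 74.2, 29.9, 54.7 and 54.4 and 1.78 to 5.68 (median 2.65), and the mitotic cyclin CCNB1 at 47.5, 19.99, 38.5 and 41.4 and 0.524 to 3.84 (median 0.770). CDKN1A, which encodes the cell cycle inhibitor p21, was also higher in human, at 87.8 ± 36.4 and 9.51 ± 2.97. MKI67, RRM2, CCNE1 and CDT1 were not called. Among the 27 members with at least 3 reads in every control liver 24 were higher in human, and in the livers with HuR knockdown 34 of 36. The human sums ran from 720.5 in replicate 2 to 1320.3, and the mouse sums from 141 to 215.

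Genes of fetal liver and progenitor cells had 6 of 7 tested members higher in human, and 3 of 4 with at least 3 reads in every control liver. AFP, alpha-fetoprotein, was at 28.5 ± 13.7 in human and 1.09 ± 0.624 in mouse, GPC3, a heparan sulphate proteoglycan of the cell surface, at 108, 66.5, 14.8 and 129.8 and 0 to 1.59, and SOX4 at 22.97 ± 12.6 and 1.30 ± 0.524. PEG3 was higher in mouse, at 2.81 against 13.7. The other 6 of 13 paired members, IGF2 among them, were under the filter.

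Immune genes differed by class. Of 32 interferon-stimulated genes 6 were higher in human and 6 in mouse, both under the shares of all pairs. With at least 3 reads in every control liver the counts were 6 and 2, and the median of −0.25 became 0.22 in the livers with HuR knockdown. CXCL10, a chemokine, was at 245, 452, 384 and 262 in human and 5.28 to 31 (median 11.8) in mouse, and ISG15 at 206 ± 157 and 41.5 ± 20.8, while IRF7 and IRF9, of the interferon pathway, were at 0 to 1.38 and 0 to 0.190 in human against 71.2 to 132 and 43.6 to 63.2 in mouse. Antigen presentation had 11 of 13 higher in mouse and 0 in human, and 5 of 7 higher in mouse with at least 3 reads in every control liver. B2M, the light chain of MHC class I, was at 194, 202, 221 and 131 in human and 6339 to 8548 (median 7259) in mouse. TAP1, TAP2, TAPBP, PSMB8 and PSMB9 were listed at 0 in every human liver, as were genes that nearly every cell uses, and without them the median of −4.09 was −1.74 over 8 pairs. Kupffer cell markers, which summed to 3.32 to 14.2 in human and 1195 to 1694 in mouse, moved with this list, and their part in it was not tested.

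Immediate early genes respond within minutes to stimuli, and clock genes follow the time of day. Of 22 immediate early genes 5 were higher in human and 3 in mouse, with DUSP1, a phosphatase of stress kinases, at 139, 422, 380.4 and 298 against 22.96 to 39.7 (median 31.5) and FOS, not called, at 2.27 ± 2.08 against 4.26 ± 0.814, with a sign that changed in livers with HuR knockdown (0.33). Both counts lie under the shares of all pairs, and with at least 3 reads in every control liver they were 5 and 1. With replicate 2 of both sets left out they were 5 and 5. Of 19 clock genes 4 were higher in human and 6 in mouse, with a median of −0.14, and in the livers with HuR knockdown 7 and 3 of 18, with a median of 0.33. ARNTL and NPAS2, which act together in the positive limb, were at 31.5 and 8.68 in human and 6.11 and 0.574 in mouse, and the outputs NR1D1 and DBP at 15.9 and 5.62 against 55.1 and 57.8. The hours at which livers were taken were not given in the sources used here, so time of day cannot be told apart from the set.

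**Figure D5:**
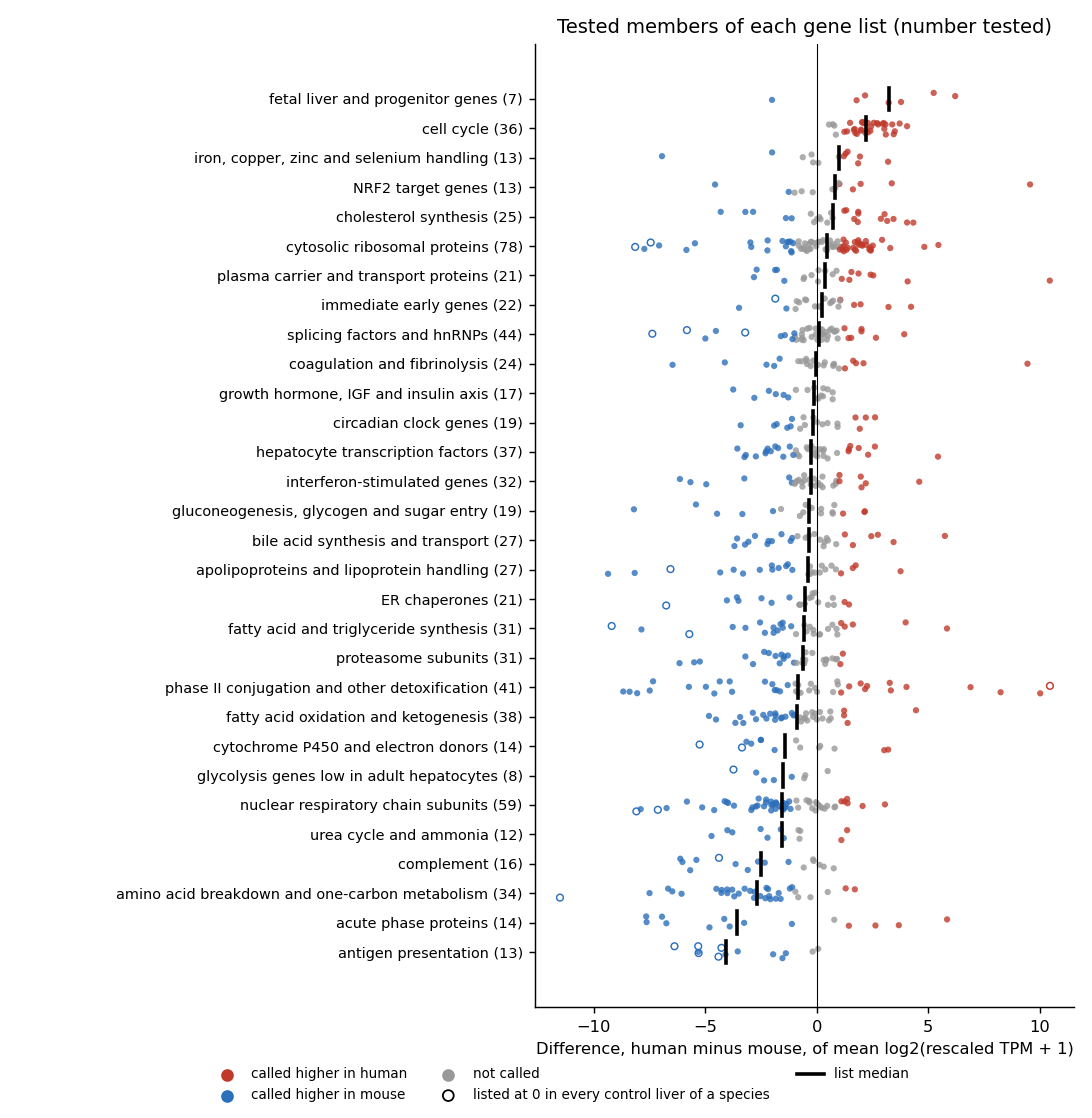
Difference (human minus mouse, mean log2 of rescaled TPM plus 1) of every tested member of 30 gene lists, coloured by its call, with open circles for members listed at 0 in every control liver of a species and a bar at the list median. Cell cycle members lie to the right (median 2.21), amino acid breakdown to the left (median −2.66), and most other lists hold called members on both sides.

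Nuclear subunits of the respiratory chain had 37 of 59 higher in mouse and 6 in human, with a median of −1.54, for example SDHA of complex II at 27.8 ± 6.44 against 369 ± 35.1 and COX4I1 of complex IV at 156 ± 33.4 against 747 ± 91.7. NDUFB7 and NDUFS5 of complex I were higher in human, by 3.06 and 2.06. Of 31 proteasome subunits 14 were higher in mouse and 2 in human, with PSMA6 at 6.94 ± 2.56 against 345 ± 9.07, and of 21 endoplasmic reticulum chaperones and stress genes 7 and 2 (6 and 4 in livers with HuR knockdown), with the chaperone HSPA5 at 183 ± 27.7 against 1034 ± 244. Splicing factors had 7 of 44 higher in human and 9 in mouse, or 7 and 5 of 40 with at least 3 reads in every control liver. Calls among the chaperones and the splicing factors were fewer than the 56.4% over all pairs.

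Cytosolic ribosomal proteins, which form the ribosome together, had a median size of the difference of 1.22, near the 1.19 of all tested pairs. Of 78 tested 31 (39.7%) were higher in human and 18 (23.1%) in mouse, against 27.1% and 29.3% of all pairs. The median was 0.46, which became −0.61 on TPM as deposited and −0.07 in the livers with HuR knockdown. Within the mouse livers alone RPLP1 was at 1605 ± 361 and RPL13A at 20.97 ± 2.80, while in human livers the order was reversed, 201 ± 24.96 and 961 ± 91.96. RPS9 and RPS18 were at 2.05 ± 2.80 and 0.245 ± 0.490 in human against 314 ± 27.6 and 251 ± 13.2 in mouse, and RPS25 was listed at 0 in every human liver. Processed copies of these genes are common in both genomes, and levels of single members are uncertain where reads match several places.

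The TPM divide by gene length, so annotated length enters each difference. The relative length of both genes, read from what 1 read is worth in each table, was known for 10269 tested pairs (90.5%). Across these pairs the log2 ratio of human to mouse length went with a lower human level, at a Spearman's rho of −0.306 (Pearson's r −0.277). The median of the centred ratio was −0.22 for pairs called higher in human, 0.28 for those higher in mouse and 0.00 for the rest. Pairs whose human gene is annotated as longer thus tended to have the lower human TPM, and the part of annotation in single differences was not tested.

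HuR, the RNA-binding protein that the series targets, is encoded by ELAVL1 (ENSG00000066044.15) and mouse Elavl1 (ENSMUSG00000040028.10, chromosome 8, 4285382 to 4325413, GRCm38, minus strand). Its baseline level was 19.5, 17.8, 20.99 and 17.6 in the human and 13.5 to 17.1 (median 15.2) in the mouse livers, at ranks 5126 and 5760. All human livers lay above all mouse livers, as in 71.3% of tested pairs. The difference was 0.31 on the log2 scale (standard error 0.10, limma adjusted p = 0.0129), less than 2-fold, and a two-sided exact permutation test over 210 groupings gave p = 0.00952, the smallest that 4 livers against 6 allow. It was −0.66 on TPM as deposited, so the sign rests on the scale.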

How the data were processed

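Liver RNA of 4 humanized and 6 WT control livers was compared, grouped by their sample labels. The authors sequenced total RNA in paired ends, trimmed reads, aligned humanized libraries with HISAT2 to a joint human and mouse index and WT libraries to mouse, and counted genes with featureCounts. They deposited TPM per gene, one table per species, and the human table lists human genes only. How gene length entered the TPM, and how reads matching several places were counted, is not given in the sources used here.

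From the deposited TPM, protein-coding genes with the same symbol were paired and rescaled to 1000000 per library. Mouse coordinates come from a GENCODE annotation of GRCm38. Reads were recovered from the TPM steps. Pairs with an average of the group means of at least 1 were fitted by limma 3.58.1 (R 4.3.3) on log2(rescaled TPM + 1), with a mean-variance trend and Benjamini-Hochberg adjustment over all 11347 pairs, and called at an adjusted p under 0.05 and a difference of at least 1. In simulated data 91% of 200 pairs shifted by 1.5 on the log2 scale passed the adjusted p alone, as did 12 unshifted pairs. The simulation gave both sets the same spread for a pair, while the median SD of the livers was 0.296 in human and 0.167 in mouse. p-values measure only the spread between these livers.

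Named were the 10 highest pairs of each species and the 6 smallest differences at a level of at least 200 in both. The 8 largest called differences in each direction at a level of at least 50 were taken only among pairs whose groups do not overlap. Also named were the 5 highest unpaired genes, pairs listed at 0 in the other species, ELAVL1, and of each list its highest member and largest called differences. A further 78 list members were named for their known role, after their values were seen. The members and lists were chosen with earlier results of these data known. Alternatives changed the pseudocount, filter, scaling, trend, replicate block and livers. Some genes, which can mark a person's genotype or sex, were left out, and some results are not reported here.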

Additional observations from a re-analysis of the deposited data

Results flagged for a closer look

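Of 99 groups of 4 or 6 livers examined, 10 held a liver whose gap to the next exceeded Dixon's critical value at 95%, a rule that chance meets in about 1 group in 20. WT replicate 2 had 1356559 reads on protein-coding genes, against 31603688 to 42599548 in the other WT livers. The same liver stood apart in Ech1, an enzyme of fatty acid oxidation (889.5 rescaled TPM against 710.4 to 773), in Gstp1 (2977 against 2005 to 2255), in Hpn (329.6 against 273 to 292) and in Myl12b (3.90 against 9.58 to 12.2). WT replicate 4 stood apart in Orm2, at 419 against 13.9 to 47.1. Humanized replicate 2 stood apart in HAMP (67.5 against 29.2 to 32.5), in EIF5 (299 against 179 to 192) and in the apolipoprotein APOC4 (0.458 against 0 in the others). Humanized replicate 3 stood apart in CHCHD10, a mitochondrial protein, at 2.70 against 0 to 0.250. HAMP, ORM2, GSTP1 and MYL12B were chosen among pairs whose groups do not overlap, so their human and mouse livers do not overlap by choice. What sets these livers apart was not tested.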

How the results depend on the processing

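The counts of called pairs depended most on the scale and on low values. On TPM as deposited 1332 pairs were called higher in human and 5347 higher in mouse. With at least 3 reads in every control liver, an alternative added after the data were seen, they were 2000 and 1834, over fewer pairs, and with a mean of at least 1 in both species 2170 were higher in human and 1988 in mouse and the median rho between species was 0.579. Leaving out 1 liver at a time gave 3002 to 3124 higher in human and 3252 to 3391 higher in mouse, a median rho of 0.690 to 0.697, and 45 to 49 of the 100 highest pairs shared. The difference changed sign on TPM as deposited in ELAVL1 (−0.66), HNRNPK (−0.13), C8B (−0.75), FOXA2 (−0.73) and GHR (−0.35), and in the livers with HuR knockdown in C8B (−0.055) and FOS (0.33). Replicate numbers did not pair the livers, since deviations of same-numbered livers correlated at 0.08, 0.00, −0.03 and −0.04. With the replicate number as a block 3014 and 3339 pairs were called, and ELAVL1 differed by 0.28 (limma adjusted p = 0.0960). Median differences of all pairs moved from −0.01 to 0.12 without the 100 highest pairs, 0.09 without the mitochondrial pairs, −0.10 with median-of-ratios factors and 0.05 with quantile normalization. Lists with medians near 0, among them coagulation, the clock, the growth hormone axis and pericentral markers, changed sign under one or more of these. Depth limits pairs near 1 rescaled TPM, most in the human livers and in WT replicate 2.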
